A study of Mus musculus with 9 samples.

Results

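The leptin receptor gene Lepr and 9 genes for stromal niche factors (Cxcl12, Kitl, Il7, Angpt1, Csf1, Il34, Vcam1, Esm1 and Gas6) were followed across every library of the series. The 10 symbols were matched to Entrez gene IDs, and all 10 were found among the 27179 genes of the matrix of normalized counts (read counts divided by 1 size factor per library). All 10 also passed the filter on low values, which kept genes that reached 10 normalized counts in 4 or more libraries. The study asked how deletion of Grem1, which codes for a secreted antagonist of bone morphogenetic proteins, alters cells of the LEPR lineage around a bone implant. Polyadenylated RNA was sequenced from lineage-negative, Lepr-tdTomato+ cells sorted from the fibrous tissue that had formed around a tibial implant 2 weeks after surgery in mice. The control group held 4 libraries of Lepr-CreERT;Tdtomato mice, called Cre-only controls, and the knockout (cKO) group held 5 libraries of Lepr-CreERT;Tdtomato;Grem1fl/fl littermates. Both groups therefore carried the Cre driver and the tdTomato reporter, and both received tamoxifen. The labels give no age and no sex, and they do not tie a library to 1 animal, so each test below measures the spread between libraries, which may in part be technical.

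LEPR is a cytokine receptor that signals through JAK2 and STAT3 when leptin binds. In adult bone marrow it marks perivascular stromal cells that are a main source of CXCL12 and of KITL, also called stem cell factor, and so help to hold and maintain hematopoietic stem cells. The CreERT driver puts tdTomato on cells in which the Lepr locus was active when tamoxifen was given, and on their descendants, so the sort does not require Lepr to be transcribed at harvest.

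Recovered reads came to between 44.8 and 53.4 M in the 4 controls, between 76.3 and 87.2 M in cKO 1 to 4, and to 43.5 M in cKO 5, so that depth and genotype largely moved together. Grem1 lay between 356 and 736 normalized counts in the controls and between 46.4 and 133 in the knockouts, without overlap, in the direction the labels give (6.57-fold lower; limma adjusted p = 0.00781). Controls 1 and 3 stood apart from the other 7 libraries in endothelial genes: Pecam1 was at 38993 and 47308 normalized counts there and between 233 and 2627 elsewhere. These were also the controls highest in Lepr, so the members are given without them as well. In bulk RNA, fewer cells of a type and less RNA per cell cannot be told apart.

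Lepr itself varied more within each group than most of the factors. It was at 18730.3, 5379.9, 40594 and 935 normalized counts in controls 1 to 4. In cKO 1 to 5 it was at 15785, 13109.8, 9822, 13845 and 1347. Control 3 was highest and control 4 lowest, the spread was 43.4-fold among controls and 11.7-fold among knockouts, and the knockout values lay wholly inside the control range. The sorted cells of control 4 and cKO 5 thus held little Lepr mRNA although each library was labelled as Lepr-tdTomato+; on the log2 scale these 2 libraries were at 9.87 and 10.40.

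Promoter sequences are shown for Lepr and for the 3 factors that followed it most closely, so that the stretch around each start site can be compared. RefSeq's table of promoters on GRCm38.p6, which is not the build the reads were aligned to, held 6 of the 10 genes; each entry spans 250 bases before to 50 bases after a start site. The lines below are all on the + strand, read 5′ to 3′, with each CG dinucleotide in capitals.
Lepr, start site 1, chr4:101717157-101717456: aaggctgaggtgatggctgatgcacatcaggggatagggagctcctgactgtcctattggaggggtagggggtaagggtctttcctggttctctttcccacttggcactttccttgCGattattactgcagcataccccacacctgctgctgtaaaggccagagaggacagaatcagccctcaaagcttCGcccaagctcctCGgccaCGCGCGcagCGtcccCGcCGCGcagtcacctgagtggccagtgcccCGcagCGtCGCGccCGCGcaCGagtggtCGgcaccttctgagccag
Lepr, start site 2, chr4:101717656-101717955: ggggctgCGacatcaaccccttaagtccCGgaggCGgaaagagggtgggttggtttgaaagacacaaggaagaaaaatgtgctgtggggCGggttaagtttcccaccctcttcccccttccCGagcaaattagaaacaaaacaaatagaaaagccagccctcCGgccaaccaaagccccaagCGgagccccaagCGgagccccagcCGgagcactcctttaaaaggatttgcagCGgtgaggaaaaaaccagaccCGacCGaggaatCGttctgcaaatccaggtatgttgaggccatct
Cxcl12, chr6:117168285-117168584: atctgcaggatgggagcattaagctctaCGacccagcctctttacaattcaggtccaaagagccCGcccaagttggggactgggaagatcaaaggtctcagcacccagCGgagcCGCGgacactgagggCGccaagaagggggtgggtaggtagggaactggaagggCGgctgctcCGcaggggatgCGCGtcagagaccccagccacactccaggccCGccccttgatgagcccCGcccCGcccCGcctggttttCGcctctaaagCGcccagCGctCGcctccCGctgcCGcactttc
Kitl, chr10:100015571-100015870: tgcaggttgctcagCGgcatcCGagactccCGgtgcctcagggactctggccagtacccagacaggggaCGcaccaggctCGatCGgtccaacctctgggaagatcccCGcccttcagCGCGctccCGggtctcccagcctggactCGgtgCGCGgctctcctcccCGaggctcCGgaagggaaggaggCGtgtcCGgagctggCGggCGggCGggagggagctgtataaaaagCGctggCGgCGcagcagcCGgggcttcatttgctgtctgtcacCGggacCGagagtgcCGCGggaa
Esm1, chr13:113209409-113209708: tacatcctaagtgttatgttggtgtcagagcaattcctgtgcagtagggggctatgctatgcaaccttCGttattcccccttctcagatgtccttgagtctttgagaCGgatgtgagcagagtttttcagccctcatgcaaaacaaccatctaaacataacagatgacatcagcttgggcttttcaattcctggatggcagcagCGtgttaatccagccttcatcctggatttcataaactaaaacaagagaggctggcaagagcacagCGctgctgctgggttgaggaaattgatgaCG
The Kitl window held 28 CG dinucleotides, the Cxcl12 window 20 and the Lepr windows 18 and 13, against a median of 7 over the 32851 promoters of the table. The Esm1 window held 5. At least as many were found in 14.2% of all promoters for Kitl, 26.5% for Cxcl12, 29.7% and 37.9% for the Lepr sites and 62.0% for Esm1. The 5 windows therefore shared no single CG content, and the GC content ran from 46.3% in Esm1 to 68.7% in Kitl (median of all promoters 52.7%). Both strands were searched for CCCNNGGG, the core bound by EBF factors, for the forkhead motif GTAAACA and for the STAT motif TTCNNNGAA. None of the 3 occurred in these 5 windows; they occurred in 13.7%, 3.65% and 8.3% of all promoters. Csf1 held 1 EBF core match, 147 bases before its start.

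Cxcl12, the chemokine that retains CXCR4-bearing blood cells in the marrow, was at 112676, 55047, 228864 and 18900.4 normalized counts in controls 1 to 4. In cKO 1 to 5 its values were 81136, 64954, 93756, 70429 and 23905. The libraries at the top and at the bottom were those of Lepr: control 3 and then control 1 were highest, control 4 and then cKO 5 lowest, and the knockouts lay inside the control range. Vcam1, an adhesion molecule that binds the integrin of ITGA4 and ITGB1 on blood cells, was at 14300.0, 9151, 19667 and 7055 in the controls. Its knockout values were 16095, 21070.4, 33130.2, 10803 and 7084. Vcam1 peaked in cKO 3 rather than in a control, and was again lowest in control 4 and cKO 5.

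Kitl, the ligand of the receptor tyrosine kinase KIT, was at 5380.1, 1768, 8599 and 1277 normalized counts in controls 1 to 4. In cKO 1 to 5 it was at 2433, 1729.7, 1809.7, 2524 and 1316. Controls 1 and 3 were above every knockout, while controls 2 and 4 lay among or below the knockouts; the spread was 6.73-fold among controls and 1.92-fold among knockouts. Il7, a cytokine that lymphoid progenitors depend on, was the least abundant factor, at 615, 175, 273 and 129 in the controls. It was at 222, 239.6, 353, 40.5 and 0 in cKO 1 to 5. The 40.5 in cKO 4 rested on 56 reads, and the library cKO 5 held no Il7 read, which allows up to 3.97 normalized counts (3 reads). Intervals and limits of this kind cover counting error only.

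Csf1 and Il34 code for the 2 ligands of the macrophage receptor CSF1R. Csf1 was at 8771, 9051, 11982 and 5676 normalized counts in the controls and at 16979, 7983, 13387, 12619 and 9170.4 in cKO 1 to 5. The values of cKO 1, 3 and 4 were above every control. Il34 was at 1866, 1657, 1393 and 2364 in the controls and at 2679, 2109, 1961, 2716 and 1646 in the knockouts. Il34 was the member with the smallest spread within a group (1.70-fold among controls, 1.65-fold among knockouts), and it was lowest in control 3, where Lepr was highest.

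Angpt1, the ligand of the endothelial and stem cell receptor TEK, was at 842, 1589, 1621 and 1273 normalized counts in the controls. It was at 1105, 1252, 1578, 927 and 1649 in cKO 1 to 5. The order differed from that of Lepr: cKO 5 was highest and control 1 lowest. Esm1, also called endocan, a secreted proteoglycan best known from endothelial tip cells, was at 4030.3, 921, 7104 and 101 in the controls and at 1128, 1924, 1392, 905 and 47.6 in the knockouts. Among the factors with reads in every library Esm1 had the widest spread, 149-fold over the 9 libraries, and its lowest value, in cKO 5, rested on 36 reads. Gas6, a ligand of the receptors AXL, MERTK and TYRO3, was at 32884, 17021, 41372 and 15347 in the controls. Its knockout values were 33125, 22894, 43427.5, 30880.0 and 23358. Gas6 was highest in cKO 3 and control 3 and lowest in controls 4 and 2.

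**Figure D1:**
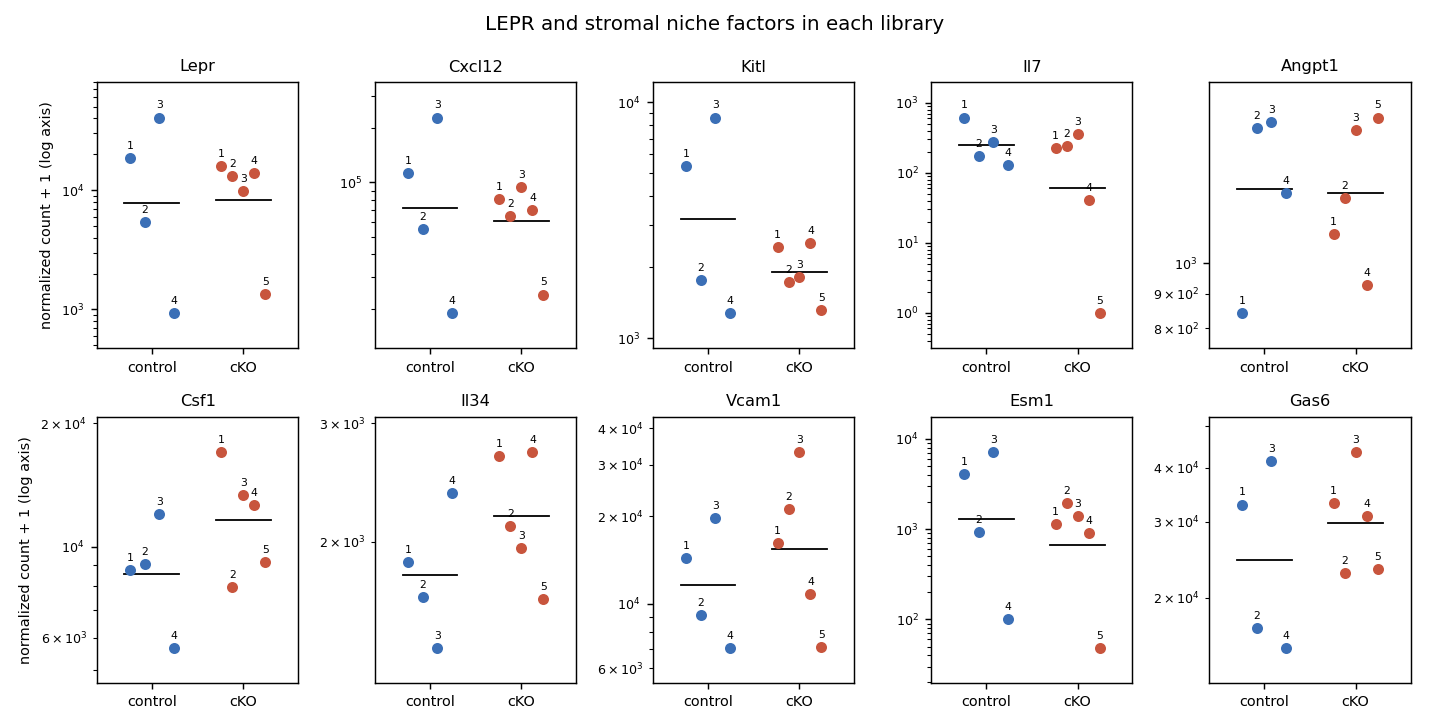
Each panel plots 1 gene's normalized count + 1 on a log axis in every library; blue points are the 4 Cre-only controls, red points the 5 knockouts, numbers are replicates and black lines are geometric means. The groups overlap in all 10 panels, and control 4 and cKO 5 lie at the bottom for Lepr, Cxcl12, Kitl, Vcam1 and Esm1.

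Per kilobase of exon, the order of the medians over the 9 libraries was Gas6, Cxcl12, Lepr, Csf1, Vcam1, Il34, Esm1, Kitl, Angpt1 and Il7. Lengths were the union of annotated exons in GENCODE M21 on GRCm38, so these levels are approximate. The median was 12120.0 normalized counts per kilobase for Gas6 (range 6023 to 17040.0), 8614 for Cxcl12 (2312 to 27990.0) and 1860.0 for Lepr (133 to 5759). Csf1 and Vcam1 followed closely at 1736 and 1612, and with Lepr they could not be ordered, since the libraries of each overlapped widely. Il34 was at 1001, Esm1 at 538, Kitl at 306, Angpt1 at 245 and Il7 at 39.1. Neighbours in this order overlapped in their ranges, except that Il7 stayed below the whole range of Angpt1 (highest Il7 library 108.5, lowest Angpt1 library 162). Of the exon length of Angpt1, 14.2% overlaps the antisense gene Gm17473, and the strand setting of the counting is not given in the sources used here.

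None of the 10 genes differed between knockout and control beyond the spread between libraries. In limma's test on log2(normalized count + 1), fitted on 15832 genes with Benjamini-Hochberg adjustment, 0 of 10 passed an adjusted p of 0.05, where 7.48% of all genes did (4.61% higher and 2.87% lower in knockouts). No member had an unadjusted p under 0.05, and no member's groups were free of overlap, against 11.4% of all genes. On recovered reads, edgeR and DESeq2 also passed 0 of 10, with 1 unadjusted p under 0.05 in each, that of Kitl. The median difference of the members was 0.02 on the log2 scale, that of all genes -0.0039, with 5 members higher and 5 lower in knockouts.

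The intervals show how much could have been missed, and they were wide for the genes that varied most. Lepr differed by 0.07 on the log2 scale (SE 1.07, limma adjusted p = 0.976, 95% interval -2.32 to 2.45), or between 0.201 and 5.46 times the control level. Its mean was 16409.7 ± 17808 (SD, n = 4) in controls and 10782 ± 5696 (SD, n = 5) in knockouts, so the ratio of means and the log2 difference point opposite ways. For Cxcl12 the difference was -0.24 (SE 0.66, limma adjusted p = 0.843, interval -1.71 to 1.23), and for Esm1 -0.94 (SE 1.36, limma adjusted p = 0.689, interval -3.96 to 2.08). The tightest bounds belonged to the factors of even level: Angpt1 at -0.02 (interval -0.57 to 0.53), Il34 at 0.29 (-0.16 to 0.74) and Csf1 at 0.44 (-0.14 to 1.01). Leaving out 1 library moved the difference of Csf1 between 0.24 and 0.60, of Il34 between 0.17 and 0.42, of Gas6 (0.29) between 0.07 and 0.54 and of Vcam1 (0.41) between 0.13 and 0.69. Without controls 1 and 3, Lepr stood at 1.88 (limma adjusted p = 0.337), Vcam1 at 0.94 (0.349) and Gas6 at 0.89, the 1 member with an unadjusted p under 0.05 there (0.00929; limma adjusted p = 0.125). A change of Angpt1 to more than 1.45 times or less than 0.673 times the control level thus lay outside its interval.

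Kitl had the lower mean in knockouts, 1962 ± 508 (SD, n = 5) against 4256 ± 3425 (SD, n = 4). Its log2 difference was -0.74 (SE 0.51, limma adjusted p = 0.381, interval -1.88 to 0.39). Without controls 1 and 3, the 2 libraries high in endothelial genes, it was 0.34 (limma adjusted p = 0.522), so its sign turned. With the log2 Lepr level as a covariate it was -0.77 (SE 0.26, limma adjusted p = 0.0800), and Esm1 then stood at -1.02 (SE 0.34, limma adjusted p = 0.0844). Under that covariate 0 of the 9 factors passed. Il7 differed by -2.05 (SE 1.56, limma adjusted p = 0.430), a value set largely by the library without a read; without cKO 5 it was -0.57. In the authors' deposited table no member passed either: the lowest adjusted p among the 10 was 0.116, for Kitl, with a log2 fold change of -1.12.

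**Figure D2:**
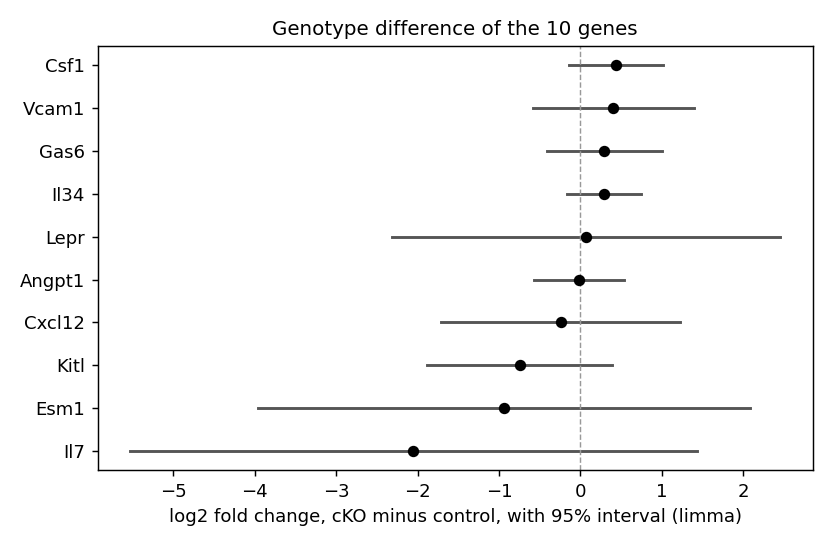
Points give the log2 fold change of knockout over control for each of the 10 genes, and lines its 95% interval from limma over 4 controls and 5 knockouts; the dashed line is at 0. Every interval crosses 0, the widest being those of Il7, Esm1 and Lepr.

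Cxcl12, Esm1 and Kitl had the closest relation to Lepr among the factors, and they were the only ones with an unadjusted exact permutation p under 0.05 in every alternative run. Over the 9 libraries, Pearson's r of log2 levels with Lepr was 0.96 for Cxcl12 (exact permutation p = 0.00016; Spearman's rho 0.90, exact p = 0.00203). It was 0.95 for Esm1 (exact permutation p = 0.000678; rho 0.80, exact p = 0.0138). For Kitl it was 0.80 (exact permutation p = 0.0176; rho 0.93, exact p = 0.00075). Cxcl12 changed 1.50-fold, Esm1 2.34-fold and Kitl 1.33-fold for each doubling of Lepr. The r of Cxcl12 was the 4th highest and that of Esm1 the 11th highest among 15831 genes, while 1.72% of all genes had a higher r than Kitl.

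After adjustment over the 15831 genes compared with Lepr, 0 of the 9 factors passed, as did 0.0% of all genes; the adjusted p was 0.264 for Cxcl12, 0.301 for Esm1 and 0.462 for Kitl. Before adjustment, 5 of the 9 had an exact permutation p under 0.05, all with a positive r, against 5.46% of all genes with a positive r. Leaving out control 4 and cKO 5, the libraries farthest from the median Lepr level, r over the other 7 was 0.87 for Cxcl12, 0.81 for Esm1 and 0.86 for Kitl. Leaving out controls 1 and 3 in their place, a choice made after seeing the data, gave 0.96, 0.93 and 0.89. With each group centred on its own mean, r was 0.97, 0.97 and 0.89, and 6 of the 9 factors had an unadjusted exact permutation p under 0.05 with a positive r, against 9.24% of all genes; the 6 were Cxcl12, Kitl, Esm1, Il7, Vcam1 and Gas6. No r is given within a genotype, since neither holds 6 libraries.

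None of the other factors had an unadjusted exact permutation p under 0.05 without the 2 libraries lowest in Lepr. The r of Cxcl12 and Esm1 also fell there, to 0.87 and 0.81, so a lower r alone does not set the others apart. Gas6 had an r of 0.75 (exact permutation p = 0.0206; rho 0.67, exact p = 0.0589) and 0.66 without control 4 and cKO 5 (exact permutation p = 0.110). Vcam1 had an r of 0.72 (exact permutation p = 0.0299; rho 0.57, exact p = 0.121), which dropped to 0.28 without them. Csf1 went from 0.62 (exact permutation p = 0.0771) to 0.21, and Il7 from 0.59 (exact permutation p = 0.0907) to 0.19. Single libraries moved the r of Csf1 and Il7. The r of Csf1 was 0.34 without control 4 alone and 0.67 without cKO 5 alone. That of Il7 was 0.81 (exact permutation p = 0.0404) without control 4 and 0.29 without cKO 5. For Vcam1 r was 0.62 without control 4 alone and 0.63 without cKO 5 alone, and fell to 0.28 only without both. Without cKO 3 alone it rose to 0.88 (unadjusted exact permutation p = 0.0030). Il34 had an r of -0.09 (exact permutation p = 0.820; rho -0.07) and Angpt1 of -0.30 (exact permutation p = 0.443; rho -0.40). The order of Il34 differed between the groups: among controls it was lowest in control 3 and highest in control 4, the reverse of Lepr, and among knockouts it was lowest in cKO 5, as Lepr was; that difference was not tested. The median r of the 9 factors was 0.72, and that of all genes 0.01.

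**Figure D3:**
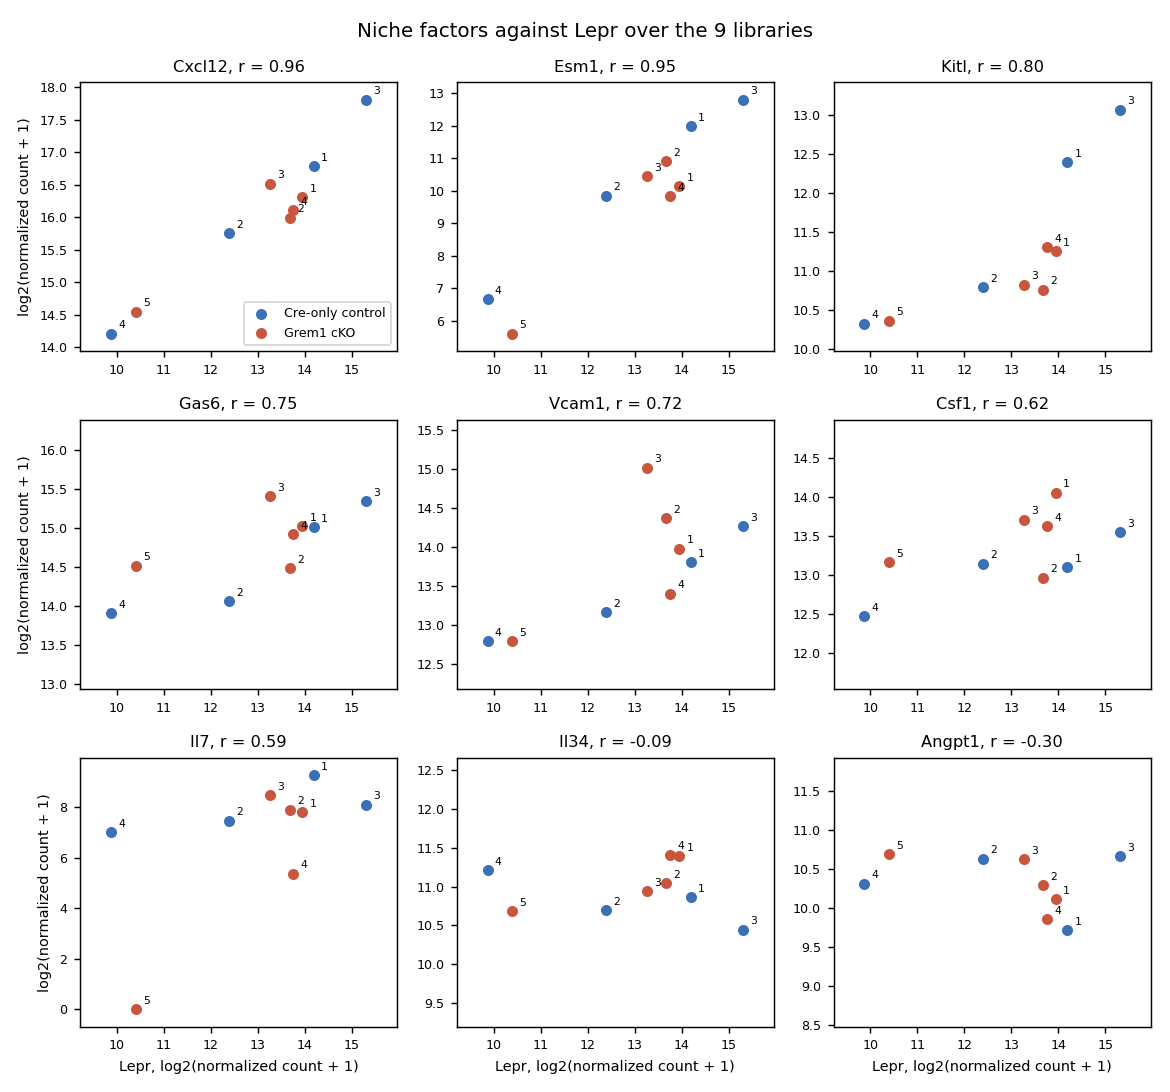
Each panel plots 1 factor against Lepr, both as log2(normalized count + 1), with 1 point per library (blue controls, red knockouts, numbers for replicates) and Pearson's r over the 9 libraries. Cxcl12, Esm1 and Kitl are highest in controls 3 and 1, the libraries highest in Lepr, and lowest in control 4 and cKO 5. Over the libraries between these, their points do not rise steadily with Lepr. The points of Il34 and Angpt1 do not have that order.

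The genes whose pattern was most like that of Lepr were taken as the 5 with the highest r among 13388 genes with a symbol and a mean of at least 50 normalized counts. They were Trf (r = 0.98), which codes for transferrin, Unc13b (0.97), Lrrtm4 (0.97), Cxcl12 itself and Agt (0.96), which codes for angiotensinogen. Trf was at 16155, 4988, 23069 and 1172 normalized counts in controls 1 to 4, and at 10947, 12178, 10059, 8633 and 2702 in cKO 1 to 5, lowest in the same 2 libraries as Lepr. Agt ranged from 1154 in cKO 5 to 6816 in control 3. Unc13b and Lrrtm4 were at 0 in control 4, and Lrrtm4 also in cKO 5. The 3 genes with the most opposite pattern were Hemk1 (r = -0.95), Nars (-0.92) and Carf (-0.92), all highest in control 4 and cKO 5; Nars codes for a cytosolic tRNA synthetase. These 8 genes were chosen for their r, which is given as a description.

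Markers of other cell types moved with some of these values, and their part in the results was not tested. All 14 endothelial genes listed had their 2 highest values in controls 1 and 3, where the summed level was 176501 and 218539 normalized counts against 7873 to 13846 in the other 7 libraries; Emcn, Sox17 and Robo4 were at 0 in at least 1 library. Among the 5 knockouts that sum stayed between 7873 and 12617, while Esm1 ran from 47.6 to 1924 and Lepr from 1347 to 15785. Tek, a gene of that list, ran there from 1145 in cKO 5 to 5191 in cKO 3. The cartilage sum was highest among controls in control 4 (4712920) and lowest in control 3 (2077610), and highest among knockouts in cKO 5 (1281380, the others 228897 to 664235). The cartilage sum was higher in every control than in any knockout. Of the 12 cartilage genes, 7 were called lower in knockouts, against 2.87% of all genes, and none was called higher. No cartilage gene of the 12 was at 0 in any library. The skeletal muscle sum, 3366 to 6723 in controls and 106403 to 824033 in knockouts, also separated the genotypes, which Lepr and the factors did not. The Schwann cell sum also separated them and was lowest in each group where Lepr was lowest: it was 29607, 27901, 30607 and 22990.4 in controls 1 to 4 and 135798, 110538, 71415, 133828 and 58755 in cKO 1 to 5. Of its 9 genes, none at 0 in any library, 6 were called higher in knockouts, against 4.61% of all genes. S100b and Ngfr went the other way, at -0.28 and -0.31 on the log2 scale, and were not called. Pmp22 made up most of the sum, with a mean of 20953 normalized counts in controls and 68908 in knockouts. Of the 9, 7 had a positive r with Lepr centred on genotype at an unadjusted exact permutation p under 0.05 (9.24% of all genes). Macrophage genes summed to 31865 to 68958 in controls and 6205 to 127086 in knockouts, with Adgre1, Fcgr1, C1qa, C1qb, C1qc and Ms4a7 at 0 in at least 1 library.

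**Figure D4:**
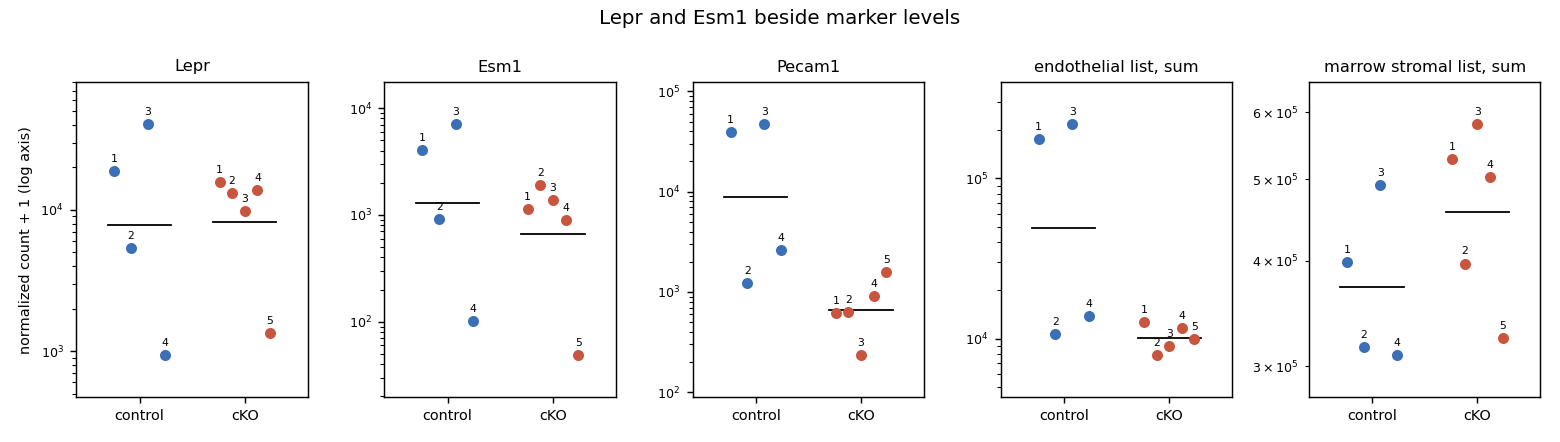
Normalized counts + 1 on a log axis for Lepr, Esm1 and the endothelial gene Pecam1, and the summed counts of the endothelial and marrow stromal lists, in each library (blue controls, red knockouts, numbers for replicates, black lines for geometric means). Controls 1 and 3 stand apart in the endothelial panels, and control 4 and cKO 5 are lowest for Lepr and Esm1.

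Genes known from marrow stroma were called in both directions for genotype. Of 24 such genes, all tested, 4 were higher and 2 lower in knockouts, against 4.61% and 2.87% of all genes, and the median log2 difference was -0.10 (all genes -0.0039). The higher ones were Ebf2, a transcription factor of the family that maintains niche stroma (3.09-fold, limma adjusted p = 0.00834), Sfrp4, a secreted Wnt antagonist (2.21-fold, limma adjusted p = 0.0157), Pdgfra, a receptor of mesenchymal progenitors (2.12-fold, limma adjusted p = 0.0229), and Serping1, the complement C1 inhibitor (2.94-fold, limma adjusted p = 0.0318). Mcam, an adhesion molecule of perivascular cells (3.05-fold, limma adjusted p = 0.0165), and Epas1, a hypoxia-responsive transcription factor (3.08-fold, limma adjusted p = 0.0187), were lower. Mcam was at 12621 and 13701 normalized counts and Epas1 at 9020 and 11239 in controls 1 and 3, the libraries high in endothelial genes, against 5402 and 7894, and 3224 and 4959, in controls 2 and 4. Ebf2, Sfrp4 and Mcam kept their call without any 1 library (highest adjusted p 0.0307, 0.0476 and 0.0492). Epas1 lost it without control 1 or cKO 4 (highest 0.0554), Pdgfra without control 1, 2 or 3 or cKO 1, 3 or 4 (highest 0.0672), and Serping1 without control 1, 2 or 4 or cKO 1, 3 or 4 (highest 0.0887). Without controls 1 and 3 together, Sfrp4 alone of the 6 kept its call. That fit left only controls 2 and 4 and called 342 of all genes, against 1184 with all 9 libraries. Fewer calls of any gene were thus made, here and wherever these controls are left out of the genotype test below.

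Several of these stromal genes also followed Lepr. Of the 24, 8 had a positive r with an unadjusted exact permutation p under 0.05, against 5.46% of all genes, and the 6 called for genotype were not among them; whether the lists overlap less than others was not tested. With each genotype centred on its own mean the count was 10 (9.24% of all genes), and it then included Sfrp4 (r = 0.81, exact permutation p = 0.0240) and Serping1 (0.67, exact permutation p = 0.0212), both called for genotype. The 8 were Fbln5 (r = 0.93), an elastic fibre protein, Adipoq (0.91), which codes for adiponectin, Ebf3 (0.90), Lpl (0.83), the lipoprotein lipase, Tmem176b (0.75), Ebf1 (0.71), Chrdl1 (0.70) and Cp (0.70). Adipoq was at 5579, 1739, 11194 and 911 normalized counts in the controls and at 4058, 3701, 4629, 2642 and 217 in the knockouts, again lowest in control 4 and cKO 5. Without those 2 libraries r was 0.90 for Adipoq, 0.87 for Ebf3, 0.85 for Lpl and 0.79 for Fbln5, but 0.25 for Cp. After adjustment none of the 8 passed. The summed level of the 24 genes was 309173 to 491688 in controls and 323939 to 581315 in knockouts, and none was at 0 in any library.

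Receptors of the niche factors were measured in the same sorted cells. Of 15 receptor genes 14 were tested, Il7r being too low; 2 were higher and 2 lower in knockouts (4.61% and 2.87% of all genes), with a median log2 difference of -0.29 (all genes -0.0039). Axl, a receptor of GAS6, was at 24248, 34012, 29299 and 32959 normalized counts in the controls and at 85907, 44995, 79089, 85331 and 44371 in the knockouts, higher in all 5 (2.17-fold, limma adjusted p = 0.0276). Ackr3, which binds and takes up CXCL12, was between 10704 and 12792 in the controls and between 14650.1 and 33600.2 in the knockouts (2.02-fold, limma adjusted p = 0.0451). Kit, the receptor of KITL, was at 5017, 1851, 3754 and 1652 in the controls and between 717 and 1571 in the knockouts (3.09-fold lower, limma adjusted p = 0.0288). Il2rg, a subunit of the IL-7 receptor, was 6.53-fold lower (limma adjusted p = 0.0184), and 30.5% of its exon length overlaps Gm20489 on the same strand. Both Kit and Il2rg were highest in controls 1 and 3. The calls of Axl and Ackr3 ended without any 1 control or without cKO 1, 3 or 4 (adjusted p up to 0.0797 and 0.108). That of Kit ended without control 1 or 3 or any 1 of cKO 1 to 4 (up to 0.0764), and that of Il2rg without control 1 or 3 or cKO 1 or 4 (up to 0.0540); without controls 1 and 3 together all 4 ended, and that of Ackr3 also without the filter on low values. Of the 14 receptor genes tested, 1 had a positive r with Lepr at an unadjusted exact permutation p under 0.05, against 5.46% of all genes. It was Tek, the receptor of ANGPT1 and an endothelial gene. Its r was 0.81 (exact permutation p = 0.00964, rho 0.85 with exact p = 0.00607), and 0.89 without control 4 and cKO 5. With each genotype centred on its own mean the count was 3 (9.24% of all genes): Tek, Ptprz1 and Ackr3, the last called for genotype. Itgb1 (r = -0.88) and Sdc1 (-0.74) then had a negative r at that threshold.

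In the leptin pathway 2 of 12 tested genes passed, 1 in each direction, against 7.48% of all genes (Lep, the ligand, was too low to test). Irs2, an adaptor of insulin and leptin signalling, was between 1403 and 1846 normalized counts in the controls and at 7336, 4898, 9072, 5556 and 1732 in cKO 1 to 5 (3.14-fold higher, limma adjusted p = 0.0397); cKO 5 lay inside the control range. Stat3, the transcription factor downstream of LEPR, was between 20109.7 and 21750.0 in the controls and between 13058 and 17632 in the knockouts (1.38-fold lower, limma adjusted p = 0.0375). Both calls held without cKO 5 and ended without any other 1 library (adjusted p up to 0.0986 for Irs2 and 0.0957 for Stat3) and without controls 1 and 3 together; Stat3 also did not pass in edgeR or without the filter. The median log2 difference of the 12 was -0.05, and none of them had a positive r with Lepr at an unadjusted exact p under 0.05, while Ptpn11 had an r of -0.67 (exact permutation p = 0.0476). With each genotype centred on its own mean, 1 of the 12 had one, against 9.24% of all genes. It was Stat5b (r = 0.70, exact permutation p = 0.0059), and Ptpn11 then had an r of -0.68 (exact permutation p = 0.115).

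Among 28 other niche factors, 27 were tested (Csf3 was too low); none was higher and 2 were lower in knockouts, near the 7.48% called among all genes, with a median log2 difference of -0.27 (all genes -0.0039). Il6, an inflammatory cytokine, was at 349, 331, 300.4 and 254 normalized counts in the controls and at 48.6, 19.5, 40.7, 44.8 and 93.9 in the knockouts (6.83-fold lower, limma adjusted p = 0.0135), with no overlap. That call held without any 1 library (highest adjusted p 0.0439). It ended without controls 1 and 3 together, although controls 2 and 4, at 331 and 254, still lay above every knockout. Vegfa, the main growth factor of blood vessels, was at 3148, 6711, 5628 and 6792 in the controls and at 2444, 2048, 2115, 1818 and 4395 in the knockouts (2.19-fold lower, limma adjusted p = 0.0481). Its groups overlapped, since cKO 5 was above control 1, and the call ended without control 2, 3 or 4 or any 1 of cKO 1 to 4 (adjusted p up to 0.117), without controls 1 and 3 together, in edgeR and without the filter. Of these factors, 6 had a positive r with Lepr at an unadjusted exact permutation p under 0.05 (5.46% of all genes): Pros1 (0.86), which codes for protein S, a ligand of TYRO3 and MERTK, Tslp (0.82), Cxcl14 (0.79), Vegfc (0.78), Dll1 (0.72) and Bmp4 (0.71). Ptn had an r of -0.75. Without control 4 and cKO 5 the r of Pros1 was 0.73, of Cxcl14 0.78, of Vegfc 0.82 and of Dll1 0.66. Tslp then had 0.39, Bmp4 0.25 and Ptn -0.14. With each genotype centred on its own mean, 6 of the 27 had a positive r at an unadjusted exact permutation p under 0.05, against 9.24% of all genes. These were Bmp4 (0.92), Pros1 (0.86), Tslp (0.83), Cxcl14, Vegfc and Flt3l. Ptn (-0.85), Angptl4, Igf1 and Fn1 had a negative r at that threshold.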

How the data were processed

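The members and the gene lists were chosen with earlier results of these data known. The values used are the normalized counts that the authors deposited, a signal obtained by dividing gene counts by each library's size factor; all 9 columns were used. A second deposited table, with the authors' comparison of the genotypes, gives per the file headers the mean signal, log2 fold change, test statistic (a score) and p-values. STAR, featureCounts and DESeq2 and the build mm39 stand in the submitters' processing notes; the sources used here do not give the annotation or strand setting. Nearly every value was a whole multiple of 1 step per library (at least 99.99% of values above 0, tolerance 0.01), which gave back whole reads for depth and count tests. IDs were matched to symbols with an NCBI table (25275 of 27179).

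Genotypes were compared with limma (version 3.58.1, R 4.3.3, trend) on log2(normalized count + 1), two-sided, with genotype as the only term, on the 15832 genes past the filter, adjusted over all of them, threshold 0.05. Correlation with Lepr used the same scale, with p-values over all 362880 pairings of the 9 libraries. Both were tested on simulated data. Named genes are the 10 members, Grem1, the 5 genes of highest and 3 of lowest r with Lepr, and in each list up to 4 passing genes in each direction. Genes that followed or opposed Lepr in a list, Pecam1, Tek and Ptpn11 were named after their values were seen. Alternatives were pseudocounts of 0.5 and 5, no filter or one of 50, TMM scaling, recovered reads in edgeR (4.0.16) and in DESeq2 (1.42.0), a block for replicate number, Lepr as a covariate and libraries left out. Chosen after seeing the data were leaving out the 2 libraries lowest in Lepr in the genotype test, centring on depth class (over 60 M reads), and leaving out controls 1 and 3 in the correlations.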

Additional observations from a re-analysis of the deposited data

How the results depend on the processing

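No member passed the genotype test under any alternative except the replicate block, where 1 did (Vcam1, log2 difference 0.69, limma adjusted p = 0.0488). The numbers shared by the groups do not pair the libraries (correlations of deviations 0.07, 0.02, -0.01 and -0.01), and the block, which drops cKO 5, called 2702 of all genes against 1184; edgeR called 786, DESeq2 2539, and leaving out 1 library 373 to 665, but 3531 without cKO 5. Without controls 1 and 3 it was 342, and with the Lepr covariate 1919. The Lepr difference was -0.63 with edgeR, -0.61 with DESeq2, -0.30 without the 2 libraries lowest in Lepr, 1.88 without controls 1 and 3, and -0.96 to 0.86 leaving out 1 library. Cxcl12 stood at 0.094 under the replicate block, at 0.91 without controls 1 and 3, and at -0.89 to 0.31 leaving out 1 library; Esm1 at 0.0077, 1.13 and -2.16 to 0.0077; Kitl at 0.34 without controls 1 and 3 and at -1.19 to -0.27 leaving out 1 library; Angpt1 at -0.22 to 0.10 leaving out 1 library. The count of factors with an unadjusted exact p under 0.05 for correlation with Lepr, 5, was 3 without the 2 libraries farthest from the median Lepr level, 3 centred on depth class, 3 without controls 1 and 3, 6 centred on genotype, and 3 to 5 leaving out 1 library; Cxcl12, Esm1 and Kitl were counted each time. Such a p, with r of either sign, was found for 1405 of all genes over the 9 libraries. It was found for 694 without the 2 libraries farthest from the median Lepr level and 1118 centred on depth class. It was found for 3318 without controls 1 and 3, 2642 centred on genotype and 930 to 1855 leaving out 1 library. A count of 3 factors thus set them apart from all genes least without controls 1 and 3. The r of Il34 was 0.41 without controls 1 and 3 and -0.32 to 0.29 leaving out 1 library. The cause of these shifts was not tested. Il7 rested on 0 to 521 reads per library, and Esm1 on 72 reads in control 4 and 36 in cKO 5. Control 4 and cKO 5 held 45.2 and 43.5 M reads in all, and controls 1 to 3 held 44.8 to 53.4 M.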
